A study of Mus musculus with 24 samples.

Results

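The expression of 10 genes of the liver sinusoidal endothelium, Bmp2, Bmp6, Wnt2, Kdr, Pecam1, Ehd3, Stab1, Stab2, Lyve1 and Clec4g, was followed by RNA sequencing in mouse livers after gavage with ethanol, with the plasticiser di(2-ethylhexyl) phthalate (DEHP), or with both. The genes were taken by symbol from a list of known sinusoidal endothelial genes, with earlier results of these data known, and were 10 of the 17537 genes with a value in any library. Livers came from male C57BL/6 mice of 20 to 30 g. The EtOH group received ethanol at 1 g/kg body weight, the DEHP group DEHP at 2500 mg/kg, the DE group both agents at those doses, and the CT group 0.5% CMC, the vehicle. Only the CT titles mention CMC, and the labels do not say if it was the carrier in EtOH, DEHP and DE. If it was not, a change against CT is that of agent and carrier together, and these cannot be told apart. The duration of treatment and the time of collection are not given. Each group had 6 libraries, while the labels speak of 12 mice per group. No label ties a library to an animal, and p-values measure only how far these samples scatter, part of which may be technical.

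Sinusoidal endothelial cells line the capillaries of the liver. They are fenestrated, lack a full basement membrane, and take up hyaluronan, denatured collagen and modified lipoproteins from the blood through scavenger receptors. They also send signals to hepatocytes: BMP2 and BMP6 act through hepatocyte BMP receptors and hemojuvelin to raise hepcidin, the iron hormone encoded by Hamp, and WNT2 from the endothelium near the central vein supports the zonal programme of pericentral hepatocytes. VEGFR2, encoded by Kdr, is the main VEGF receptor of endothelial cells. In whole liver, fewer cells of a type and less RNA per cell cannot be told apart.

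Promoters are shown for the scavenger receptor genes Stab1 and Stab2 and for Kdr and Ehd3, because 3 of these genes were lower after ethanol and because Stab1 and Stab2, a related pair, have the longest transcripts of the set. The sequences are from RefSeq on GRCm38.p6, 250 bases before to 50 bases after the start of the gene in that table, which held a promoter for 7 of the 10 genes. Each runs 5′ to 3′ on the strand of the gene, and for Kdr, Stab1 and Stab2 the start in that table lies inside the span of the gene. Capitals mark matches to CAGGAA or CCGGAA, core letters of ETS factor motifs, on either strand. The windows are chr5:75978406-75978705 (minus strand) for Kdr, chr17:73804591-73804890 (plus strand) for Ehd3, chr14:31168592-31168891 (minus strand) for Stab1 and chr10:87007893-87008192 (minus strand) for Stab2.
Kdr: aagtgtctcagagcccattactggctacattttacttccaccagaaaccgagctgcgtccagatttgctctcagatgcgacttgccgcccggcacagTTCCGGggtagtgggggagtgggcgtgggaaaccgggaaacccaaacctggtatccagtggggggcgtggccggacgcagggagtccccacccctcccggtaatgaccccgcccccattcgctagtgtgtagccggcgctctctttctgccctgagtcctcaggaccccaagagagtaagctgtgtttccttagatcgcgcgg
Ehd3: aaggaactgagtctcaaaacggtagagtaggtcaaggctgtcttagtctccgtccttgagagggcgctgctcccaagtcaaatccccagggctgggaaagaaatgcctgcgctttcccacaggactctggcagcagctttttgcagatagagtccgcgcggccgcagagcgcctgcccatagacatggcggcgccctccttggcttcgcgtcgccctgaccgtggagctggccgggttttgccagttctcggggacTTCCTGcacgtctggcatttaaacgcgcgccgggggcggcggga
Stab1: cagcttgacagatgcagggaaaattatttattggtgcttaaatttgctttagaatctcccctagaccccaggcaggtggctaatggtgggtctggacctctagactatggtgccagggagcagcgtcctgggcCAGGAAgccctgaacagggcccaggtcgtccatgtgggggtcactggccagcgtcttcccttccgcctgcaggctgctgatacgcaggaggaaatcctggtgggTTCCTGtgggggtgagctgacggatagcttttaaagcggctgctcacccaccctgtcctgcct
Stab2: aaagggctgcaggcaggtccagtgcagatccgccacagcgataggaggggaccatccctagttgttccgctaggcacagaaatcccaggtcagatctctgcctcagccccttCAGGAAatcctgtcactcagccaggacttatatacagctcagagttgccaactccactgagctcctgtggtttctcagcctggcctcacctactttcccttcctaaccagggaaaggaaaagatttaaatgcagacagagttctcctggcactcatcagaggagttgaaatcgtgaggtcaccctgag
CAGGAA was present in 4 of the 7 promoters (Clec4g, Stab2, Stab1 and Ehd3), against 30.6% of all 32851 promoters of that length. CCGGAA was present in 1 of the 7 (Kdr), against 14.9% of all promoters. The GATA motif AGATAA was in 0 of the 7 and in 11.2% of all promoters, and the KLF motif CCACACCC was in 0 of the 7 and in 3.56% of all. TATAAA was in 1 of the 7 (Clec4g) and in 13.6% of all. These are letter matches on either strand in a short window, and no match says only that the letters are not in that window. The promoters of Kdr and Ehd3 were 60.7% and 61.7% G or C, that of Stab1 57.3% and that of Stab2 53%, against a median of 52.7% over all promoters.

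The gene spans on GRCm38.p6 are chr2:133552159-133562896 for Bmp2 (NCBI gene 12156), chr5:75932827-75979072 for Kdr (16542), chr17:73804841-73832093 for Ehd3 (57440), chr14:31139017-31168651 for Stab1 (192187) and chr10:86841194-87008038 for Stab2 (192188). All 10 are protein-coding, with the other five on chromosomes 13 (Bmp6), 7 (Lyve1), 11 (Pecam1), 8 (Clec4g) and 6 (Wnt2). Values are over the whole gene, since the tables hold 1 value per gene.

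Libraries held between 7324793 and 8016662 expected counts, with similar ranges in EtOH (7668152 to 7912089), DEHP (7324793 to 7779687), DE (7564215 to 8016662) and CT (7510462 to 7679886). All 10 genes were above 0 in all 24 libraries, so the sinusoidal markers were present throughout. A few libraries stood apart in transcripts of other tissues. The summed level of 5 muscle markers was 3465 FPKM in DE6 and 4618 FPKM in CT1 and at most 3.34 FPKM elsewhere, and 5 pancreas markers summed to 452 FPKM in DEHP6 and to at most 3.1 FPKM elsewhere. DEHP1 had the highest sums of 10 Kupffer cell markers (478.4 FPKM) and 5 neutrophil markers (67.43 FPKM). Results are given with and without CT1, DE6 and DEHP6 together where their removal changed a call.

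At the level of FPKM, which is per length of transcript and so allows genes to be set side by side, the set spanned a wide range. Clec4g, the lectin LSECtin, was the most abundant, at 26.8 ± 2.14 FPKM in EtOH, 32.8 ± 8.58 in DEHP, 31.9 ± 8.29 in DE and 34.6 ± 9.87 in CT (SD, n = 6 each). Ehd3, which encodes an ATPase of endocytic membrane recycling, followed at 11.7 ± 2.05 FPKM in EtOH, 15.2 ± 1.77 in DEHP, 14.6 ± 2.25 in DE and 19.8 ± 5.75 in CT (SD, n = 6 each). At the low end, Bmp6 averaged 0.757 FPKM in DE and 1.12 FPKM in CT, and rested on 8 to 49 counts per library. Wnt2 rested on 8 to 29 counts and averaged 1.02 FPKM in EtOH and 1.11 FPKM in CT. The group mean was highest in CT for 9 of the 10 genes, and for Wnt2 it was highest in DE. It was lowest in EtOH for 9 genes, and for Bmp6 it was lowest in DE. Most neighbouring means in this order differed by less than their SDs. The tests that follow set each difference against its standard error, so a call does not mean that a difference exceeded the SD of the libraries.

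**Figure D1:**
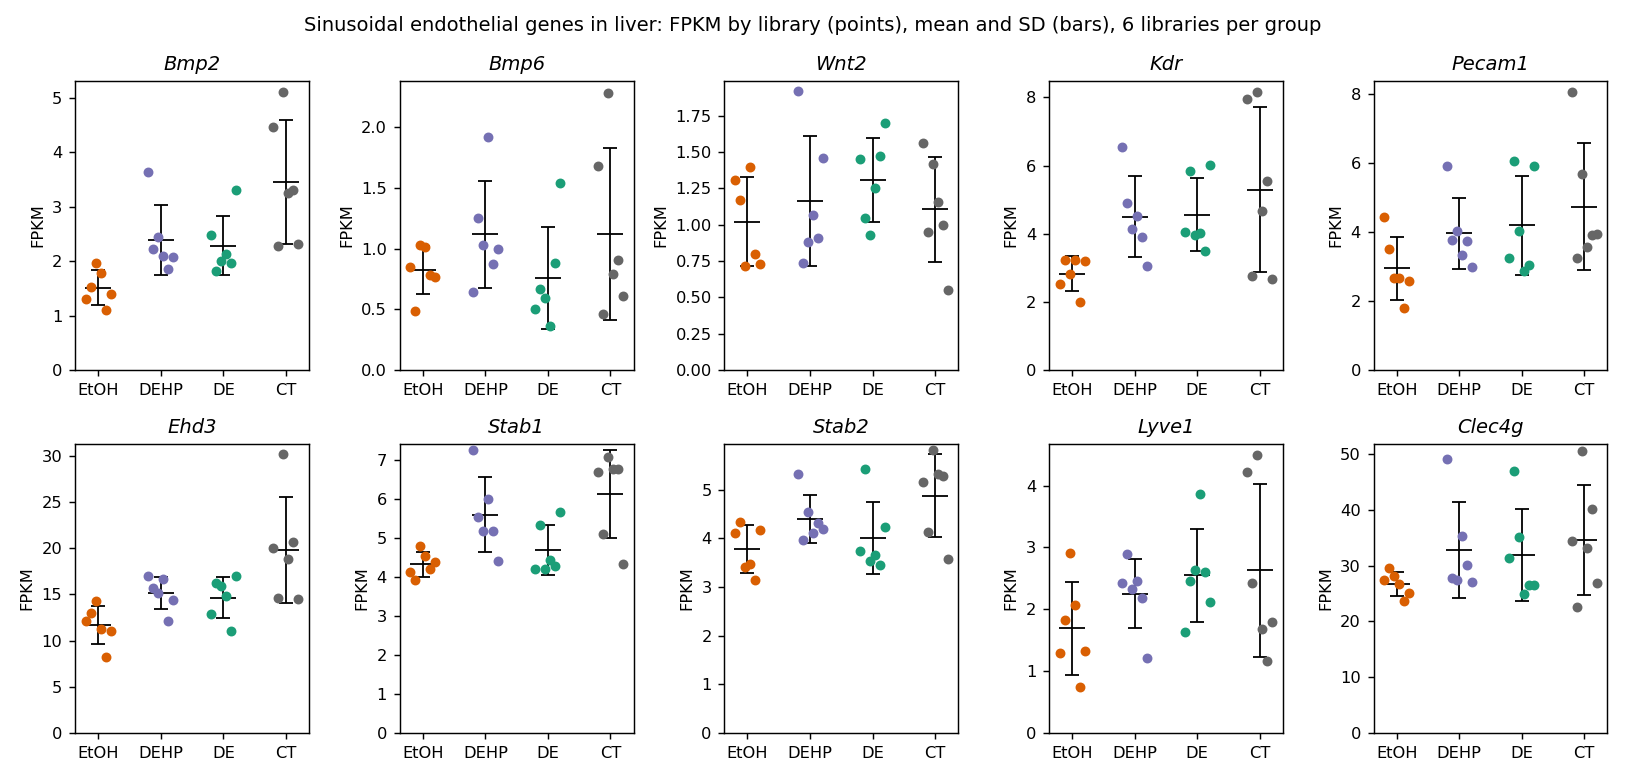
FPKM of each gene in each library, with the groups EtOH, DEHP, DE and CT from left to right, 6 points per group, and a bar for the mean with whiskers of 1 SD. The 6 EtOH libraries lie below the 6 CT libraries for Bmp2 and, narrowly (14.26 against 14.46 FPKM), for Ehd3. The share of all genes separated in this way was not counted. The CT libraries are the most spread for Bmp6, Kdr and Lyve1.

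The first question was how ethanol by itself changed the sinusoidal genes. After ethanol, the BMP ligand gene Bmp2, the VEGF receptor gene Kdr, the membrane-trafficking gene Ehd3 and the scavenger receptor gene Stab1 fell, and no gene of the set rose. Bmp2 was at 0.462 of its CT level (95% interval 0.345 to 0.619), Kdr at 0.564 (0.405 to 0.786), Ehd3 at 0.620 (0.501 to 0.767) and Stab1 at 0.743 (0.629 to 0.878). The remaining 6 genes had log2 changes below 0 that did not pass. In all, 4 of 10 were called at an adjusted p below 0.05 in edgeR, where 28.8% of the 10697 genes tested were called, 14.2% higher and 14.5% lower. The median log2 change of the 10 genes was -0.49, against -0.01 over all genes tested. Each of the 4 calls held in every fit that left out 1 of the 24 libraries. That of Stab1 was lost when the trend of counts with transcript length was removed (-0.20, adjusted p = 0.256), and the calls of Bmp2, Kdr and Ehd3 were not.

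Among the ligands, Bmp2 had 1.11, 1.47 and 1.97 FPKM as the lowest, median and highest EtOH library, against 2.28, 3.29 and 5.11 FPKM in CT. All EtOH libraries were low and the groups did not overlap. How often this holds over all genes was not counted, so it is not read as particular to Bmp2. The log2 change was -1.11 (SE 0.21, adjusted p = 0.000401). Bmp6, which shares the hepcidin-raising role, had 0.49, 0.815 and 1.03 FPKM in EtOH, against 0.46, 0.85 and 2.28 FPKM in CT. The groups overlapped almost fully apart from CT1 and CT3, which were high, and the log2 change of -0.37 (interval -1.09 to 0.35) had an adjusted p of 0.437. Wnt2 had 0.72, 0.985 and 1.4 FPKM in EtOH and 0.55, 1.08 and 1.56 FPKM in CT. These ranges also overlapped, with a log2 change of -0.05 (interval -0.60 to 0.50, adjusted p = 0.915). Changes within that interval, in either direction, are not excluded by these libraries.

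Of the surface receptor genes, Kdr had 1.99, 3.01 and 3.24 FPKM in EtOH, against 2.68, 5.12 and 8.17 FPKM in CT. The EtOH libraries were uniform, while CT2 and CT6 reached down into their range, and the log2 change was -0.82 (SE 0.23, adjusted p = 0.0103). Pecam1, an endothelial adhesion molecule of cell junctions, had 1.79, 2.68 and 4.43 FPKM in EtOH, against 3.25, 3.92 and 8.05 FPKM in CT. Here 4 of the 6 EtOH libraries lay below the lowest CT library. Its log2 change of -0.61 missed the threshold (SE 0.24, adjusted p = 0.0610), and it passed without any 1 of EtOH1, DEHP1, CT2 or CT4 (adjusted p = 0.0270 to 0.0491). Pecam1 also passed with DESeq2 (adjusted p = 0.0461) and with limma on FPKM with a pseudocount of 1 (adjusted p = 0.0475) or 0.1 (adjusted p = 0.0433). Ehd3 had 8.26, 11.7 and 14.3 FPKM in EtOH and 14.5, 19.5 and 30.2 FPKM in CT. Its groups did not overlap, by a narrow gap, and how often this holds over all genes was not counted. Its log2 change was -0.69 (SE 0.15, adjusted p = 0.00173).

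Of the 4 endocytic receptor genes, Stab1 was the only one called with ethanol in edgeR. Stab1, which encodes stabilin-1, a receptor for oxidised lipoproteins and matrix fragments, had 3.92, 4.3 and 4.8 FPKM in EtOH, against 4.35, 6.74 and 7.1 FPKM in CT. Only CT6 among the CT libraries reached into the EtOH range, and the log2 change was -0.43 (SE 0.12, adjusted p = 0.00858), or -0.20 with the length trend removed, where it was not called. Stab2, for stabilin-2, the main hyaluronan clearance receptor of the liver, had 3.15, 3.8 and 4.33 FPKM in EtOH and 3.57, 5.22 and 5.81 FPKM in CT. CT2 and CT6 lay within the EtOH range. The log2 change of -0.29 did not pass (SE 0.12, adjusted p = 0.0710), and it passed without DE2 (adjusted p = 0.0414) and without CT6 (adjusted p = 0.0247). It passed with limma on FPKM with a pseudocount of 1 (adjusted p = 0.0414) or 0.1 (adjusted p = 0.0413), and not with DESeq2. Lyve1, a hyaluronan receptor also of lymphatic vessels, had 0.75, 1.57 and 2.91 FPKM in EtOH and 1.17, 2.11 and 4.49 FPKM in CT, with a log2 change of -0.56 (interval -1.20 to 0.08, adjusted p = 0.180). Clec4g had 23.6, 27 and 29.6 FPKM in EtOH and 22.7, 33.8 and 50.5 FPKM in CT, a wide overlap, with a log2 change of -0.30 (interval -0.67 to 0.06, adjusted p = 0.196). When the values were scaled as TPM or left without normalization factors, the median of all genes was itself below 0 for ethanol (-0.15 and -0.09 on the log2 scale), the calls over all genes divided as 481 higher and 2764 lower or 930 higher and 2061 lower in place of 1524 and 1555, and 6 members were called lower. The direction of the 4 called members was the same under every scaling.

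The second question was the effect of DEHP alone. Relative to CT, Bmp2 and Ehd3 fell and no other gene of the set passed, which is 2 of 10 where 26% of all genes were called, 14.4% higher and 11.6% lower. These comparisons share the CT libraries with those of ethanol. Bmp2 had 1.85, 2.17 and 3.64 FPKM in DEHP, against the CT values above, with 4 of 6 DEHP libraries below the lowest CT library. Its log2 change was -0.54 (SE 0.20, adjusted p = 0.0454). Ehd3 had 12.1, 15.4 and 16.9 FPKM in DEHP, with 2 of 6 libraries below the lowest CT library, and a log2 change of -0.40 (SE 0.15, adjusted p = 0.0479). Both calls were marginal. Bmp2 was no longer called without any 1 of EtOH2, EtOH6, DEHP2 to DEHP6, DE3, DE4, CT1, CT3, CT4 or CT5 (adjusted p = 0.0501 to 0.140). Ehd3 was no longer called without any 1 of EtOH1, EtOH2, EtOH4, EtOH6, DEHP2 to DEHP6, DE1 to DE4, CT1, CT3, CT4 or CT5 (adjusted p = 0.0511 to 0.178). Without CT1, DE6 and DEHP6 together, neither was called (Bmp2 -0.44, adjusted p = 0.145, and Ehd3 -0.41, adjusted p = 0.0942).

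The other 8 genes gave log2 changes between -0.28 for Pecam1 (adjusted p = 0.412) and 0.06 for Wnt2 (adjusted p = 0.887) with DEHP. Kdr had 3.05, 4.33 and 6.54 FPKM in DEHP, between the CT extremes of 2.68 and 8.17 FPKM. Its log2 change was -0.24 (interval -0.71 to 0.22, adjusted p = 0.461). Stab1 had 4.42, 5.37 and 7.26 FPKM in DEHP, with a log2 change of -0.14 (interval -0.38 to 0.10, adjusted p = 0.383), and Stab2 a log2 change of -0.16 (interval -0.41 to 0.09, adjusted p = 0.348). The median log2 change of the 10 genes was -0.20, against -0.02 over all genes.

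With the combination, Bmp2, Ehd3 and Stab1 were lower than in CT, 3 of 10 where 36.8% of all genes were called, 19.3% higher and 17.4% lower. Bmp2 had 1.83, 2.07 and 3.3 FPKM in DE, with 4 of 6 libraries below the lowest CT library, and a log2 change of -0.60 (SE 0.20, adjusted p = 0.0198). Ehd3 had 11.1, 15.4 and 17 FPKM in DE, and a log2 change of -0.44 (SE 0.15, adjusted p = 0.0230). Stab1 had 4.21, 4.37 and 5.67 FPKM in DE, with 3 of 6 libraries below the lowest CT library, and a log2 change of -0.39 (SE 0.12, adjusted p = 0.0106). For all 3 genes DE and CT overlapped. Without CT3, the library with the highest values, Bmp2 (-0.46, adjusted p = 0.0718) and Ehd3 (-0.29, adjusted p = 0.0989) were no longer called.

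Kdr was not called in DE, at 3.51, 4.04 and 6.02 FPKM, with a log2 change of -0.21 against CT (interval -0.68 to 0.25, adjusted p = 0.490). Stab2 had 3.45, 3.7 and 5.42 FPKM in DE and a log2 change of -0.29 (adjusted p = 0.0689), which passed without DE2 (adjusted p = 0.00887) and without CT6 (adjusted p = 0.0217). Bmp6 had 0.36, 0.63 and 1.54 FPKM in DE and a log2 change of -0.58 (interval -1.31 to 0.14, adjusted p = 0.201), and passed without DE6 (-0.90, adjusted p = 0.0470). DE6 was 1 of the libraries with muscle transcripts, and their part in that value was not tested. Wnt2 had its highest mean in DE, 1.31 ± 0.287 FPKM, with a log2 change of 0.23 (interval -0.30 to 0.77, adjusted p = 0.517). The median over the 10 genes was -0.25, against -0.01 over all genes.

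**Figure D2:**
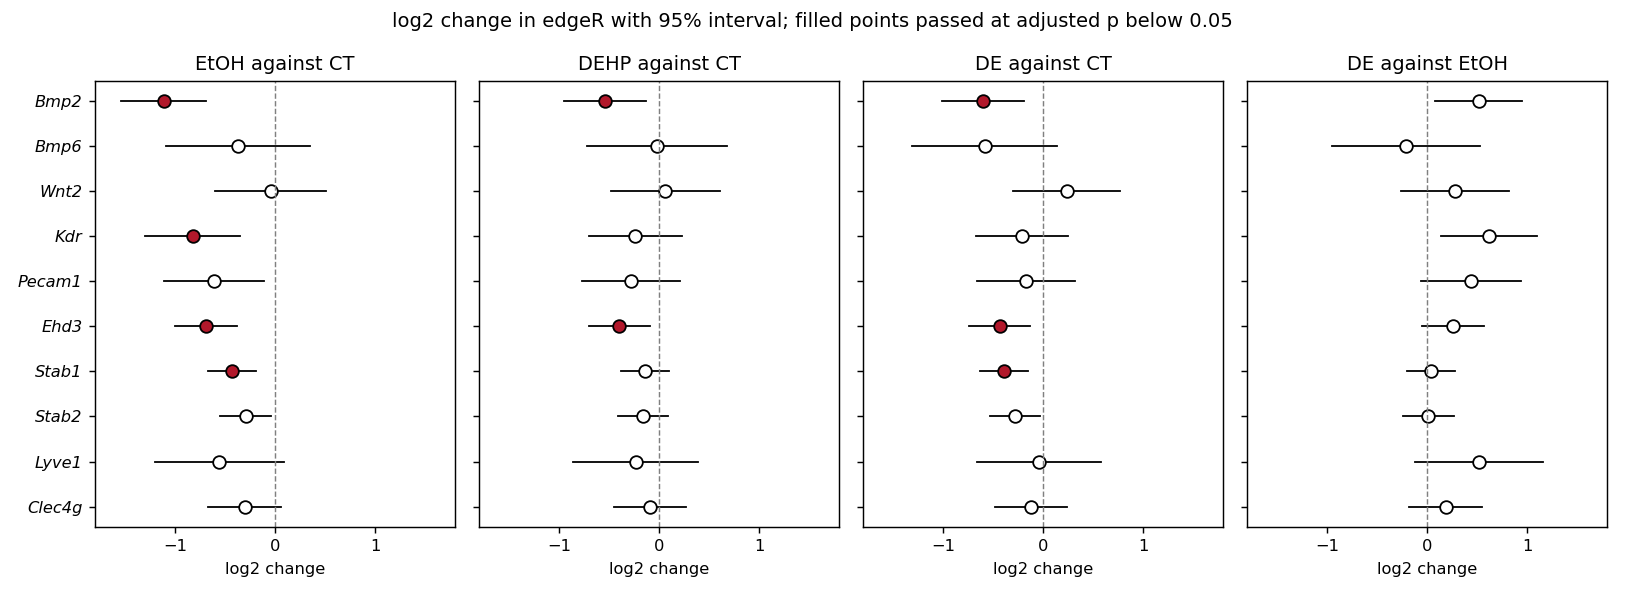
Log2 change of each gene with its 95% interval in edgeR, for EtOH, DEHP and DE against CT and for DE against EtOH. Filled points passed at an adjusted p below 0.05: Bmp2 and Ehd3 in all 3 comparisons against CT, Stab1 with EtOH and DE, and Kdr with EtOH, while no gene passed for DE against EtOH.

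Adding DEHP to ethanol was read from DE against EtOH. None of the 10 genes passed (0 of 10, where 27.8% of all genes were called, 15.1% higher and 12.7% lower, with 2 at an unadjusted p under 0.05), although 9 of 10 log2 changes were above 0, with a median of 0.26 against 0.02 over all genes. The nearest was Kdr, at 3.51, 4.04 and 6.02 FPKM in DE, against 1.99, 3.01 and 3.24 FPKM in EtOH. The groups did not overlap, a trait that was not counted over all genes, and the log2 change was 0.61 (SE 0.23, adjusted p = 0.0506). DESeq2 called it (0.60, adjusted p = 0.0325), as did limma on log2(FPKM + 1) (0.53, adjusted p = 0.0467), and edgeR called it without any 1 of DEHP1, DEHP6, DE5, CT1, CT2, CT3 or CT6 (adjusted p = 0.0318 to 0.0483). Bmp2 followed with a log2 change of 0.51 (SE 0.21, adjusted p = 0.0705), all 6 DE libraries lying above the EtOH mean, and passed without EtOH3 or without DEHP1 (adjusted p = 0.0423 and 0.0465). Stab1 and Stab2 gave log2 changes of 0.04 (interval -0.20 to 0.28) and 0.01 (interval -0.24 to 0.26). With TPM the calls over all genes were 2563 higher and 695 lower, in place of 1620 and 1356, with a median of 0.12.

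Adding ethanol to DEHP was read from DE against DEHP, where few genes were called (0.122% of those tested, 0.0467% higher and 0.0748% lower). A gene not called may still have changed. None of the 10 passed in edgeR, with 1 at an unadjusted p under 0.05, and the median log2 change was -0.03. DESeq2 called 0 of the 10 as well. The gene at the unadjusted threshold was Stab1, with 4.21, 4.37 and 5.67 FPKM in DE and 4.42, 5.37 and 7.26 FPKM in DEHP (log2 change -0.25, unadjusted p = 0.0440, adjusted p = 0.453). Bmp2 gave -0.06 (interval -0.48 to 0.36) and Kdr 0.03 (interval -0.44 to 0.49).

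Whether the ethanol effect differed in the presence of DEHP was tested as the interaction, the log2 change of DE over DEHP minus that of EtOH over CT. Bmp2 passed, at 1.05 (SE 0.29, adjusted p = 0.0285), 1 of 10 where 6.41% of all genes were called, 3.32% with a value above 0 and 3.09% below. Its log2 change with ethanol was -0.06 in the presence of DEHP and -1.11 in its absence. Ehd3 (0.65, adjusted p = 0.0603) and Kdr (0.85, adjusted p = 0.107) did not pass, and the median over the 10 genes was 0.46, against 0.01 over all genes. Bmp2 missed the threshold without any 1 of EtOH5, DEHP6, DE6, CT1 or CT3 (0.91 to 1.01, adjusted p = 0.0510 to 0.0550) and without CT1, DE6 and DEHP6 together (0.83, adjusted p = 0.131). Ehd3 passed without any 1 of EtOH3, DE5, CT2 or CT6 (adjusted p = 0.0366 to 0.0461), and Kdr without CT6 (adjusted p = 0.0489).

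The changes against CT ran with transcript length over all genes, which touches this set, since 6 of the 10 genes exceed 3000 bases and the median length was 3423 bases against 2702 over the genes tested. Among genes over 5000 bases, the median log2 change was -0.21 in EtOH, -0.16 in DEHP and -0.24 in DE, and 33.7%, 22.7% and 39.2% were called lower. Among genes under 1500 bases the medians were 0.14, 0.10 and 0.20. By library, the median deviation of genes over 5000 bases from their mean over all libraries was -0.132 to 0.124 in EtOH, -0.0976 to 0.0713 in DEHP, -0.168 to 0.0179 in DE and 0.0822 to 0.224 in CT. The stabilin transcripts, 7995 bases for Stab1 and 8152 bases for Stab2, are longer than those of all but 3.33% and 3.11% of genes tested, and Kdr has 5464 bases.

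After the trend with length was removed within each library, an alternative chosen after seeing the data, the ethanol calls of Bmp2 (-1.06, adjusted p = 0.000575), Ehd3 (-0.64, adjusted p = 0.00329) and Kdr (-0.67, adjusted p = 0.0343) held, and that of Stab1 did not (-0.20, adjusted p = 0.256). Stab2 then had a log2 change of -0.06 with ethanol (adjusted p = 0.790). In DE against CT, Bmp2 held (-0.54, adjusted p = 0.0378), while Stab1 (-0.12, adjusted p = 0.514) and Ehd3 (-0.37, adjusted p = 0.0569) did not. In DEHP against CT neither Bmp2 (-0.51, adjusted p = 0.0603) nor Ehd3 (-0.36, adjusted p = 0.0731) was called. Clec4g, the shortest transcript of the set with 1239 bases, moved the other way, to -0.43 with ethanol (adjusted p = 0.0779). Kdr then passed for DE against EtOH (0.64, adjusted p = 0.0352).

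**Figure D3:**
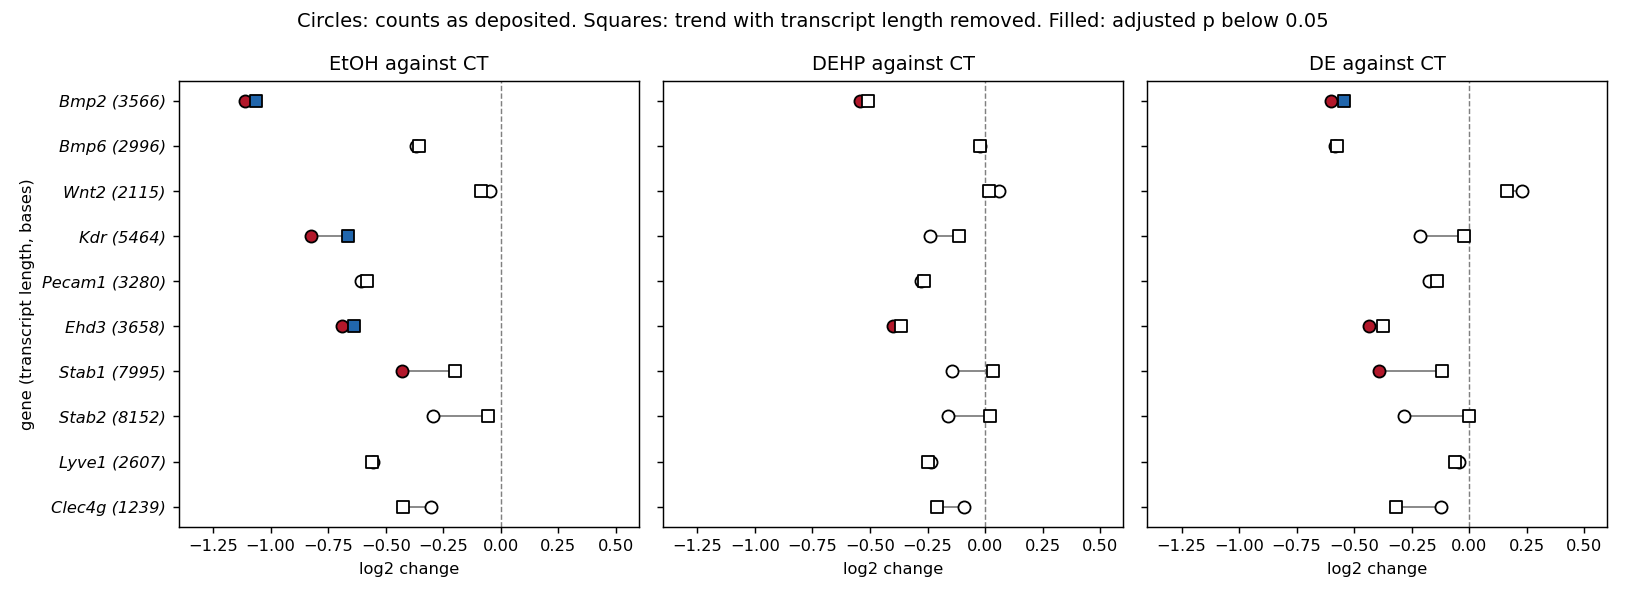
Log2 change of each gene against CT for EtOH, DEHP and DE, from the counts as deposited (circles) and with the trend of counts on transcript length removed in each library (squares), with the transcript length in bases beside each name. Filled symbols passed at an adjusted p below 0.05: the long Stab1, Stab2 and Kdr move toward 0, and Bmp2 and Ehd3 move little.

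The 10 genes varied together from library to library. Over the 24 libraries the Pearson correlation of log2 CPM (counts scaled to library size) between 2 of the genes ranged over the 45 pairs from 0.10 to 0.85, with a median of 0.53. With group means removed it was 0.10 to 0.82, with a median of 0.49, and in the 18 libraries outside CT the median was 0.37 with 40 of 45 pairs above 0. Genes of 1 library share its depth, tissue piece and RNA, so these are descriptions of the libraries. Kdr had the highest median correlation with the other 9 genes (0.72), and Wnt2 (0.29), Bmp6 (0.31) and Lyve1 (0.33), 3 weakly expressed genes, the lowest.

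The spread was widest in CT. The mean of the 10 standardised log2 CPM values was -1.49 to -0.19 SD units in EtOH, -0.40 to 1.17 in DEHP, -0.58 to 0.59 in DE and -0.69 to 1.87 in CT. In CT3, 9 of the 10 genes were among their 4 highest of 24 libraries, and in CT1 7 were, whereas CT2 and CT6 lay at -0.42 and -0.69, within the EtOH range. EtOH5 was the lowest library, with 7 of the 10 genes among the 4 lowest of 24. DEHP1 was the only DEHP library far above its group, with 7 genes among the 4 highest. CT1 also carried muscle transcripts, and CT3 had the highest Kupffer marker sum of its group (340.5 FPKM). The part of either in these values was not tested.

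**Figure D4:**
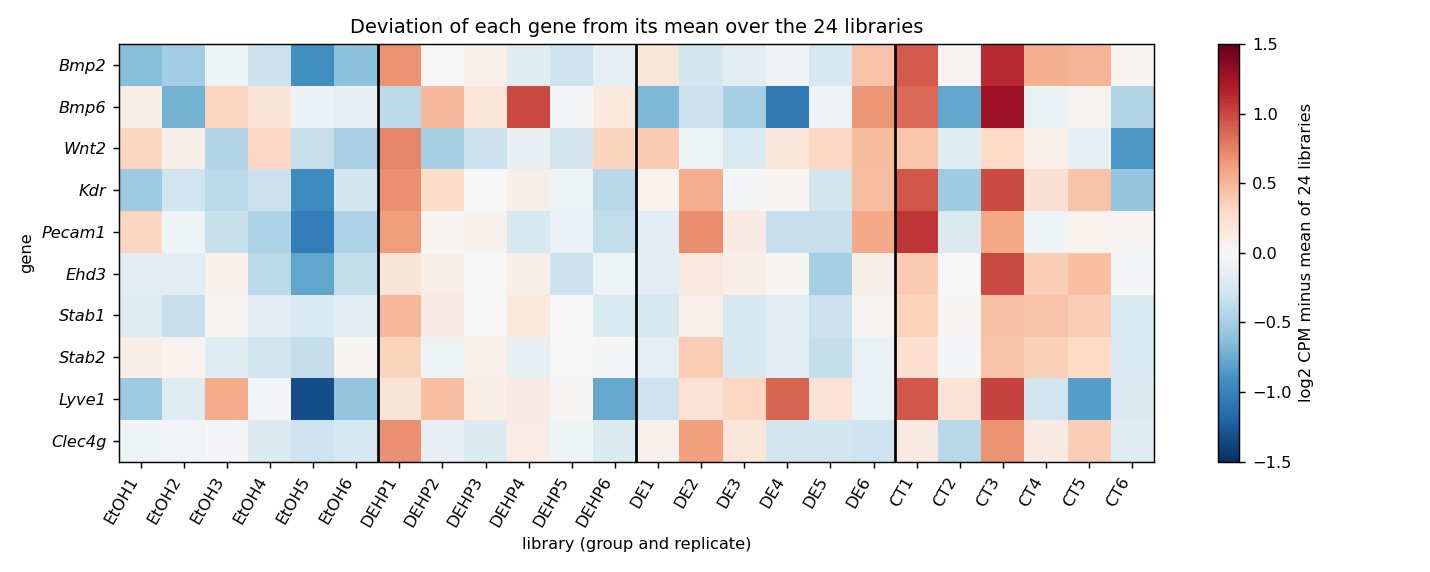
Log2 CPM of each gene in each library minus its mean over the 24 libraries, on a colour scale from -1.5 to 1.5, with libraries grouped as EtOH, DEHP, DE and CT from left to right and black lines between groups. CT1, CT3 and DEHP1 are high over most genes and EtOH5 is low.

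Of 10687 further genes, those whose log2 CPM followed the mean profile of the 10 most closely over the 24 libraries were Ets1 (Pearson r 0.912), Ptprb (0.892), Itga9 (0.889), Cdh5 (0.882), Oit3 (0.879), Adgrl4 (0.875), Gimap6 (0.856) and Chst15 (0.855). Ets1 encodes an ETS transcription factor, Ptprb the endothelial phosphatase VE-PTP, and Cdh5 VE-cadherin of endothelial junctions. With group means removed, the closest were Aqp1 (0.921), Cd300lg (0.920), Itga9 (0.898), Ets1 (0.870) and Cdh5 (0.868). Ets1 averaged 2.18 FPKM in EtOH, 2.90 in DEHP, 2.77 in DE and 3.46 in CT, and fell with ethanol (log2 change -0.61, SE 0.17, adjusted p = 0.0113). It was picked for following a profile that was itself lower in EtOH than in CT (median -0.48 against 0.54 SD units). Its fall is therefore no separate support for that of the 10 genes.

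The counts of related gene lists that follow stand beside shares over all genes of 14.2% higher and 14.5% lower for EtOH, 14.4% and 11.6% for DEHP, and 19.3% and 17.4% for DE against CT. No list was tested against these shares. Other genes of the sinusoidal endothelium were taken from a list of 20, of which 15 were tested. With ethanol 8 of these fell and 0 rose, and all 15 log2 changes were below 0, with a median of -0.52. F8, the gene of coagulation factor VIII, fell (-0.99, SE 0.23, adjusted p = 0.00249), as did the semaphorin receptor gene Plxnc1 (-0.86, SE 0.23, adjusted p = 0.00681) and Aass, of lysine breakdown (-0.35, SE 0.08, adjusted p = 0.00297). Whole-liver values do not show which cells gave these changes, and a metabolic gene such as Aass need not be read as endothelial. Both F8 and Plxnc1, with Aass, were higher in DE than in EtOH, the 3 of 15 called there. Over all genes 15.1% were called higher and 12.7% lower in DE against EtOH, so that count is near the share over all genes. With DEHP 0 of 15 were called against CT in edgeR, with 2 at an unadjusted p under 0.05, and with DE only Fcgr2b, an Fc receptor gene that clears immune complexes, fell (-0.53, SE 0.15, adjusted p = 0.00555). Of 17 tested genes that endothelia share in general, 2 fell with ethanol (Ptprb and Tek), 0 with DEHP in edgeR (1 at an unadjusted p under 0.05) and 1 with DE (Ptprb). These counts of calls do not exceed the shares called lower over all genes (14.5%, 11.6% and 17.4%), and say nothing particular to this list. With ethanol, 14 of the 17 log2 changes were nonetheless below 0, as in the sinusoidal list, with 6 at an unadjusted p under 0.05. Their median was -0.37, against -0.01 over all genes, so a shift below 0 with ethanol was not particular to sinusoidal genes. The medians were -0.05 with DEHP and -0.07 with DE. Ptprb fell with ethanol (-0.74, SE 0.14, adjusted p = 0.000438) and with DE (-0.37, SE 0.14, adjusted p = 0.0350). After the length trend was removed, its ethanol value was -0.43 (adjusted p = 0.0176) and its DE value -0.01. The DE call of Ptprb was lost without any 1 of DE1, DE3, DE4, CT1, CT3 or CT4 (adjusted p = 0.0580 to 0.118). Cdh5 had a log2 change of -0.58 with ethanol (adjusted p = 0.0686). It passed without any 1 of DEHP1, CT2, CT4 or CT6 (adjusted p = 0.0316 to 0.0464) and in limma with TPM (adjusted p = 0.0472).

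Of 8 transcription factor genes of endothelial cells that were tested, 2 rose and 2 fell with ethanol. Nr2f2, the venous regulator COUP-TFII that is also expressed by other liver cells, rose (1.00, SE 0.11, adjusted p = 9.37e-07). Klf2, a shear-stress-responsive factor, fell with ethanol (-0.87, SE 0.25, adjusted p = 0.0111), with DEHP (-0.68, adjusted p = 0.0424) and with DE (-0.83, adjusted p = 0.0101). The DEHP call of Klf2 was lost without any 1 of DEHP2 to DEHP5, CT1, CT3, CT4 or CT5 (adjusted p = 0.0593 to 0.115) and without CT1, DE6 and DEHP6 together (-0.65, adjusted p = 0.0716). Gata4, a regulator of sinusoidal identity, had a log2 change of 0.31 with ethanol (adjusted p = 0.0425), which did not pass with TPM (0.12, adjusted p = 0.402) or in 10 of 24 fits without 1 library (adjusted p = 0.0522 to 0.129), nor without CT1, DE6 and DEHP6 together (0.25, adjusted p = 0.0940).

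Of 9 ligands and receptors of the VEGF and angiopoietin families other than Kdr, 2 fell with ethanol, Flt4 (-0.55, adjusted p = 0.0283) and Tek (-0.66, adjusted p = 0.0417), the receptors VEGFR3 and TIE2. Neither passed without CT1, DE6 and DEHP6 together (adjusted p = 0.0638 and 0.116) or after the length trend was removed (adjusted p = 0.119 and 0.0949). Flt4 was not called without any 1 of EtOH1, EtOH2, EtOH5, CT1, CT3 or CT5 (adjusted p = 0.0557 to 0.0983), and Tek without any 1 of EtOH3 to EtOH6, CT1 or CT3 (adjusted p = 0.0622 to 0.146). Vegfa, the ligand of VEGFR2 made largely by hepatocytes, averaged 31.7 ± 7.50 FPKM in DEHP and 43.2 ± 3.32 FPKM in CT (SD, n = 6 each), and fell (-0.48, SE 0.13, adjusted p = 0.00704). Nrp2, a VEGF and semaphorin co-receptor, rose with DEHP (1.42, SE 0.18, adjusted p = 1.77e-06) and DE (interval 1.14 to 1.87, adjusted p = 4.95e-07). Flt1, the decoy receptor VEGFR1, averaged 1.63 ± 0.761 FPKM in DE and 0.910 ± 0.294 FPKM in EtOH (log2 change 0.77, adjusted p = 0.0468), a call lost in 15 of 24 fits that left out 1 library (adjusted p = 0.0503 to 0.192) and without CT1, DE6 and DEHP6 together (0.49, adjusted p = 0.111).

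Downstream of the BMP ligands, the group means of Hamp stood in another order than those of Bmp2. Hamp averaged 1160 ± 345 FPKM in EtOH, 357 ± 179 in DEHP, 635 ± 276 in DE and 1302 ± 459 in CT (SD, n = 6 each). With ethanol, where the log2 change of Bmp2 was furthest below 0, Hamp had a log2 change of -0.15 (interval -0.78 to 0.49, adjusted p = 0.752). With DEHP it fell (-1.91, SE 0.32, adjusted p = 8.96e-05) and with DE too (-1.07, SE 0.31, adjusted p = 0.00973). Id1, another BMP target that many cell types express, had a log2 change of -1.07 with ethanol (SE 0.36, adjusted p = 0.0280), which was lost without EtOH2 or without CT4 (adjusted p = 0.0603 to 0.112). Over the list of BMP receptors, co-receptors and targets, 25 were tested, of which 3 rose and 3 fell with ethanol, 1 rose and 4 fell with DEHP, and 1 rose and 5 fell with DE. The ethanol counts are close to the shares over all genes (14.2% higher and 14.5% lower), and say nothing particular to this list. Tmprss6, the hepatocyte protease that dampens the pathway, rose with ethanol (0.37, SE 0.08, adjusted p = 0.00217), and Smad7, its inhibitory SMAD, fell with DE (-0.97, SE 0.24, adjusted p = 0.00279).

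Of 19 tested genes in a list of Wnt ligands, receptors and targets other than Wnt2, 7 rose and 1 fell with ethanol, 2 rose and 1 fell with DEHP, and 3 rose and 2 fell with DE. The list mixes pathway genes with targets that hepatocytes express. Among its members, Rhbg rose with DEHP (1.10, SE 0.21, adjusted p = 0.000367) and Slc1a2 fell with DE (-0.71, SE 0.11, adjusted p = 3.07e-05). With ethanol, the ubiquitin ligase gene and Wnt target Rnf43 (1.30, SE 0.20, adjusted p = 4.71e-05) and the receptor gene Fzd8 (1.31, SE 0.24, adjusted p = 0.000357) rose, and the co-receptor gene Lrp6 fell (-0.62, SE 0.11, adjusted p = 0.000238). Lrp6 also fell with DEHP (-0.48, adjusted p = 0.00177) and with DE (-0.66, adjusted p = 3.75e-05). With the length trend removed, its log2 changes were smaller and still called, at -0.36 with EtOH, -0.29 with DEHP and -0.36 with DE. Rspo3, the R-spondin of central vein endothelium, was not called in any comparison in edgeR with all 24 libraries. Its log2 changes were -0.35 in EtOH (adjusted p = 0.220), -0.36 in DEHP (adjusted p = 0.227) and 0.12 in DE (adjusted p = 0.700) against CT. For DE against EtOH (0.47, adjusted p = 0.107) it passed in edgeR without DE4 (adjusted p = 0.0470) and in limma with TPM (adjusted p = 0.0493). Wnt9b was below the level needed for the test.

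Among 13 scavenger and lectin receptors outside the set, 3 rose and 5 fell with ethanol, 1 rose and 0 fell with DEHP, and 1 rose and 2 fell with DE. Fcgr2b (-0.52, SE 0.15, adjusted p = 0.0104) and Colec12 (-0.35, SE 0.07, adjusted p = 0.00124), a collectin scavenger receptor, fell with ethanol. Fcgr2b is also in the list of other sinusoidal genes above. Scarb1 rose with ethanol (0.33, SE 0.09, adjusted p = 0.0115), and was not called in limma with TPM (0.15, adjusted p = 0.210). Cd36, a fatty acid transporter that hepatocytes also make and that is a target of PPARA, rose with DEHP (2.90, SE 0.24, adjusted p = 2.85e-09) and with DE (2.83, SE 0.24, adjusted p = 2.47e-09). Of 10 EHD and caveolar genes, Sdpr, for a caveolar coat protein, fell with ethanol (-1.45, SE 0.28, adjusted p = 0.000530), and Ehd4, a paralog of Ehd3, rose with DEHP (0.87, SE 0.18, adjusted p = 0.000817) and with DE (1.25, SE 0.18, adjusted p = 6.97e-06), the opposite direction to Ehd3.

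Markers of other liver cells were read beside these results. Of 10 Kupffer cell markers 0 were called in any comparison against CT in edgeR (0 at an unadjusted p under 0.05 with EtOH, 0 with DEHP and 1 with DE), and their summed level was 131.9 to 253.5 FPKM in EtOH, 174.3 to 478.4 in DEHP, 168.1 to 234.9 in DE and 114.3 to 340.5 in CT. Of 10 stellate cell markers, 3 fell with EtOH, 3 with DEHP and 2 with DE, and the sums were 99.16 to 138.2 FPKM in EtOH, 94.77 to 133.4 in DEHP, 116.5 to 248 in DE and 122 to 260.2 in CT. Of 6 cholangiocyte markers tested, 3 fell with EtOH, 1 with DEHP and 1 with DE, with sums over the 8 listed of 18 to 21.46 FPKM in EtOH, 20.2 to 31.56 in DEHP, 15.5 to 31.37 in DE and 24.94 to 41.66 in CT. None of the markers of these 3 cell types was at 0 in all libraries. Of 8 hepatocyte markers, 2 rose and 1 fell with EtOH, and 6 fell with DEHP and 6 with DE. The part of cell composition in the changes of the sinusoidal genes was not tested.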

How the data were processed

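RNA of mouse livers was sequenced in 24 libraries, 6 per group, from 1 TruSeq protocol per the labels. For each library the authors deposited a table with gene ID and symbol, the expected count (estimated reads of the gene, not normalised) and FPKM (the same per kilobase and by library size), per the file headers. A gene absent from a table was set to 0. The submitters' processing notes name Cuffdiff and the builds mm10 and GRCm38. The aligner, the counting program, how it split reads between near-identical genes and if it used strand: none is given in the sources used here. Libraries were assigned to groups and numbers by title.

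The rounded counts entered the quasi-likelihood test of edgeR 4.0.16, run in R 4.3.3, scaled by TMM, with 1 coefficient per group and all 24 libraries in the fit, with 20 residual degrees of freedom. Genes with an FPKM of at least 1 in at least 6 libraries were tested (10697 genes, among them all 10 members). Benjamini-Hochberg adjustment covered every tested gene of a comparison, and calls needed an adjusted p below 0.05. Log2 changes are edgeR's, with its default prior count, and intervals are at 95%. Depth of 7324793 to 8016662 counts per library limits precision for genes of a few counts. DESeq2 1.42.0, limma 3.58.1 with FPKM or TPM, other scalings and filters, a replicate block and leaving out each library were tried as alternatives. Removing the trend with transcript length (lowess span 0.3 in each library) and leaving out CT1, DE6 and DEHP6 were added after the data were seen. The test was tried on simulated counts.

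The 10 members and the gene lists were chosen with earlier results of these data known. From each list the text names, at most, the 3 genes with the smallest adjusted p among called genes in each comparison against CT, and 8 fixed partners. The genes closest in profile to the members are the 8 with the highest correlation, and 5 with group means removed. Only some of the genes that these rules give are named. Gene coordinates and promoters are from RefSeq GRCm38.p6.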

Additional observations from a re-analysis of the deposited data

Results flagged for a closer look

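Of 40 sets of 6 libraries (10 genes in 4 groups) examined for a library far from the others, 2 were picked out, and chance picks out about 1 in 20 such sets. Bmp2 had 3.64 FPKM in DEHP1, where the next highest DEHP library had 2.45 FPKM. Pecam1 had 5.9 FPKM in DEHP1, where the next highest DEHP library had 4.03 FPKM. DEHP1 also had the highest Kupffer, neutrophil and adipocyte marker sums of its group (478.4, 67.43 and 148.6 FPKM), whose part in these values was not tested.

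The interaction of Bmp2, its response to ethanol with and without DEHP, was called at 1.05 on the log2 scale (SE 0.29, edgeR adjusted p = 0.0285). The call was lost without any 1 of EtOH5, DEHP6, DE6, CT1 or CT3 (edgeR adjusted p = 0.0510 to 0.0550). It was also lost without CT1, DE6 and DEHP6 together.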

How the results depend on the processing

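No value changed direction while called, and of the 4 ethanol calls, Stab1 was lost in 1 alternative, the removal of the length trend, and the others in none in which the gene was tested. A count is given here as moved when it differed by more than 1.5 times. For EtOH against CT (4 members called), it was 2 with a mean FPKM of at least 5, since fewer members pass that filter, and within that limit 5 with DESeq2, 6 with limma on FPKM with either pseudocount or on TPM and without normalization factors, and 3 with the length trend removed. For DEHP against CT (2), 0 with limma on FPKM with a pseudocount of 1 or 0.1 or on TPM, without normalization factors, without a filter, with only the groups compared, without CT1, DE6 and DEHP6, and with the length trend removed, and 1 with upper-quartile factors and with a mean FPKM of at least 5. For DE against CT (3), 1 with the length trend removed, and within the limit 2 with a mean FPKM of at least 5. For DE against EtOH (0), 1 with DESeq2, limma on log2(FPKM + 1), the replicate block and the length trend removed, and 2 with a pseudocount of 0.1, without normalization factors, with TPM and with only the groups compared. For the interaction (1), 2 with DESeq2, without normalization factors, with TPM and with the replicate block, and 0 without CT1, DE6 and DEHP6. Over all genes, DE against DEHP (13) gave 44 with DESeq2, 7 and 6 with limma on FPKM with pseudocounts of 1 and 0.1, 1 without a filter, 5 with the replicate block, 6 with only the groups compared, 8 without CT1, DE6 and DEHP6 and 2 with the length trend removed, and the interaction (686) gave 365 without CT1, DE6 and DEHP6. The cause was not tested.

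Leaving out 1 library gave 4 to 5 members called for EtOH against CT, 0 to 2 for DEHP against CT, 1 to 4 for DE against CT, 0 to 2 for DE against EtOH, 0 to 0 for DE against DEHP and 0 to 3 for the interaction. Over all genes it gave 2450 to 3315, 2179 to 2891, 3330 to 4060, 2612 to 3103, 0 to 18 and 459 to 835 in the same order. Same-numbered libraries of different groups did not deviate together (correlations of -0.215 to 0.211), so no pairing by number was seen. Different-numbered libraries were not set beside them and the labels state no pairing, so pairing is not excluded. The replicate block called 5 members for EtOH against CT, with Pecam1 added (adjusted p = 0.0290), 2 for DEHP against CT and 3 for DE against CT. Bmp6 and Wnt2, with 8 to 49 counts a library, are the genes depth limits most.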
